A study of Homo sapiens with 10 samples.

Results

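*TP63* and *TP73* encode the paralogous transcription factors p63 and p73. Both genes were followed through 2 gene count tables and 1 list of TRPS1 peaks from T47D cells, an established luminal breast cancer cell line. They are 2 of the 19695 gene symbols in the count tables. All TRPS1 peaks within 500 kb of either gene were included, which gave 9 of the 1844 peaks, 8 around *TP63* and 1 around *TP73*.

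RNA-seq was carried out on T47D cells 72 h after transfection with control siRNA, *TRPS1* siRNA or *CHD4* siRNA, with 2 libraries in each group. TRPS1 is an atypical GATA factor that acts mainly as a transcriptional repressor, and CHD4 is the chromatin remodeler of the NuRD repressor complex. ChIP-seq with a TRPS1 antibody comprised 2 ChIP and 2 input libraries of T47D cells, for which 1 peak list was deposited. For the *CHD4* group the labels and the RNA interference methods name an siRNA, whereas the RNA-seq methods name an shRNA, and no rescue was included for either knockdown. The sources do not say whether replicates were separate cultures, so the p-values measure the spread between these libraries, which may be technical.

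p63 and p73 have related DNA-binding and oligomerization domains and bind similar response elements. Each gene has an upstream promoter for the TA isoforms, which carry the transactivation domain, and an internal promoter for the ΔN isoforms, which lack it. ΔNp63 marks the basal layer of stratified and glandular epithelia, including the basal and myoepithelial cells of the breast, and is usually low in luminal cells. p73 takes part in DNA damage responses and in the differentiation of multiciliated and neural cells.

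In the RefSeq annotation of GRCh38.p14, *TP63* lies on chromosome 3 from 189596746 to 189897276 and spans 300.5 kb. *TP73* lies on chromosome 1 from 3652516 to 3736201 and spans 83.7 kb. Promoter sequences from RefSeq (GRCh38.p14, plus strand, 250 bases before the annotated start) were searched for GATA elements, because TRPS1 is a GATA family factor and neither gene had a peak at its listed starts. The searched letters were AGATAA, then AGATAG, then TGATAA and then TGATAG on both strands, and they are in capitals where they occur. The table held 1 promoter for *TP63* and 3 for *TP73*. The internal ΔN promoter of *TP63* was not listed and therefore not searched. The promoters shown are that of *TP63*, the first of *TP73* and the *TP73* promoter with an element.
*TP63* promoter, chr3:189631139-189631388: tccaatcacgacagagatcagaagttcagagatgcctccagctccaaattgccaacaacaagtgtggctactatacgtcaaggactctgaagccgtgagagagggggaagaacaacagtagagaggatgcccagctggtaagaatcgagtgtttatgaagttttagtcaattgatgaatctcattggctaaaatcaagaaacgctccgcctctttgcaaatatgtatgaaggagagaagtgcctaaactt
*TP73* promoter 1, chr1:3652266-3652515: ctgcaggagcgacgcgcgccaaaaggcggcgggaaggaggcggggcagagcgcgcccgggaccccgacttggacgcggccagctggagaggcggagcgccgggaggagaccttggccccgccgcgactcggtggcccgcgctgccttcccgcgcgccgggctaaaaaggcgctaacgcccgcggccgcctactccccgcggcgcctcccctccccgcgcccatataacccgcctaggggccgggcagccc
*TP73* promoter 3, chr1:3697796-3698045: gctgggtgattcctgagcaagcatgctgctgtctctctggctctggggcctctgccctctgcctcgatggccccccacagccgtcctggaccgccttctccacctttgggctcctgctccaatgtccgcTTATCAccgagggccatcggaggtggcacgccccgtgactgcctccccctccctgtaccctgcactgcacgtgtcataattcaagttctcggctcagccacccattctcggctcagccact

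The listed *TP63* promoter had a GC content of 44.0% and held 0 elements in the 250 bases before the start. The *TP73* promoters had a GC content of 77.2%, 64.0% and 63.2%. Promoter 3 of *TP73* held TGATAA on the minus strand, printed above as TTATCA, 121 bases before the start, and promoters 1 and 2 held 0. Among the 35116 promoters of the table, 22.3% held at least 1 of these elements in the same 250 bases. The table's next 50 bases of *TP63* add 1 element, TGATAG, which starts 7 bases past the annotated start. With those bases included, 25% of all promoters held an element. The longer AGATAAGG was in neither gene's listed promoters and in 0.83% of all promoters. A match is a description of letters, not a site. The 30 bases around the *TP63* element are shown because it is the single match at that start.
*TP63* start, chr3:189631384-189631413: aacttctatgtcTGATAGcatttgacccta

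*TP63* also holds a microRNA gene, *MIR944*. Its mature sequence is shown with the seed, bases 2 to 8, in capitals, as the other annotated transcript of this locus. *MIR944* has no row in the count tables.
hsa-miR-944, chr3:189829975-189829996: aAAUUAUUguacaucggaugag

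The deposited TRPS1 peaks around *TP63* were spread over the gene and both flanks. A pair of peaks lay inside the gene. The first, on chromosome 3 from 189756654 to 189756992, was 339 bp wide and lay 125.3 kb past the annotated start of the promoter table. The second, from 189779407 to 189779693, was 287 bp wide and lay 148.0 kb past that start, 22414 bases from the first. Neither was near that start, but distances to the internal ΔN promoter, which was not listed, could not be given. The paper reports TRPS1 enrichment at the ΔN promoter and at a candidate enhancer upstream of the TA promoter, but not at the TA promoter.

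A single peak from 189458544 to 189458907 lay upstream, 137.8 kb before the gene and 172.5 kb before the start of the promoter table, and overlapped no annotated gene. It was 364 bp wide, and it was the nearest peak on the upstream side. Further upstream, 4 peaks lay inside *TPRG1* (tumor protein p63 regulated 1), the neighboring gene, in 2 pairs. The nearer pair, from 189304364 to 189304670 and from 189304873 to 189305134, was separated by 202 bases and lay 292.1 and 291.6 kb from *TP63*. The farther pair, from 189103173 to 189103521 and from 189104157 to 189104548, was separated by 635 bases and lay 493.2 and 492.2 kb away, just inside the 500 kb limit. On the downstream side, 1 peak from 190230129 to 190230354 lay 332.9 kb past the gene end, in no annotated gene, 60.0 kb from *CLDN16* and 75.4 kb from *CLDN1*.

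Beyond the 8 peaks, the next peak lay 1559.3 kb to the left of *TP63* and 3973.3 kb to the right. A window of 1000 kb therefore also held 8 peaks, whereas one of 250 kb held 3. With the start of the promoter table in place of the annotated gene start, the farther *TPRG1* pair fell outside and 6 peaks remained. Counted the same way for 19974 protein-coding genes, the median was 1 peak within 500 kb, the highest was 13, and 0.355% of the genes had at least 8. This is a description of 1 peak list, in which long genes take wider windows and neighboring genes share peaks.

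The single peak of *TP73*, on chromosome 1 from 3739367 to 3739833, lay 3.2 kb past the end of the gene and 86.9 kb from its first annotated start. It was 467 bp wide, compared with a median of 288 bp and a range from 207 to 1745 bp for all peaks. It lay inside *TP73-AS1*, listed by RefSeq as *GFOD3P*, a transcript whose annotated span overlaps the last 218 bases of *TP73*. The next peaks lay 2147.3 kb to the left and 4523.0 kb to the right of the gene. Of the protein-coding genes, 51.2% had at least 1 peak within 500 kb, so the presence of 1 peak does not set *TP73* apart.

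**Figure D1:**
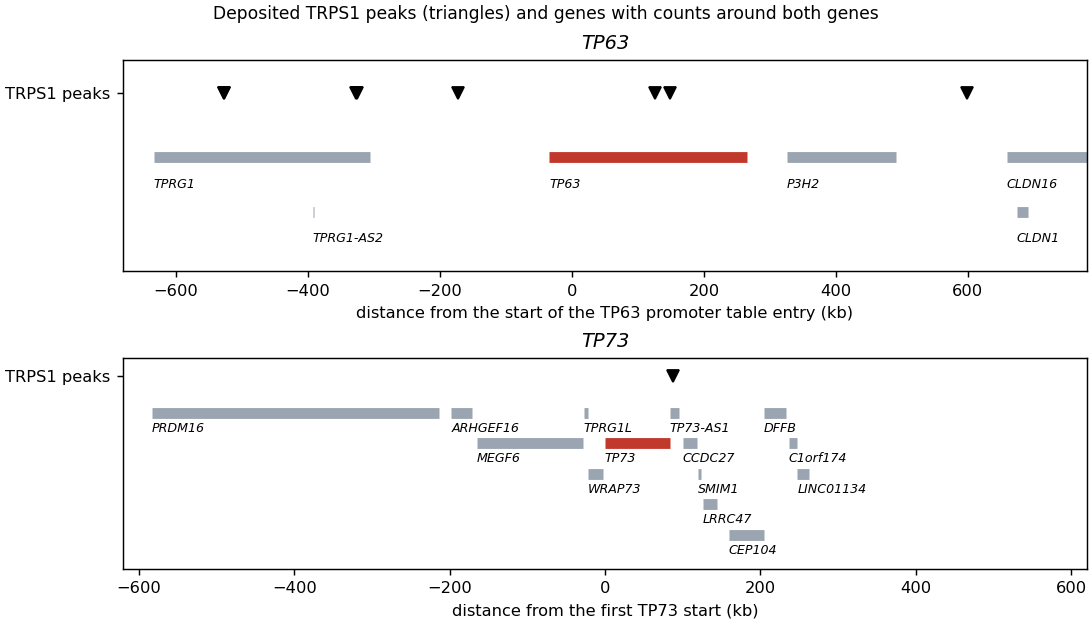
Deposited TRPS1 peaks (triangles) and genes with counts (bars) around *TP63* and *TP73*, by distance in kb from the *TP63* start of the promoter table and from the first *TP73* start. The 8 peaks of the *TP63* window lie over *TPRG1*, between the genes, inside *TP63* and to the right of *P3H2*. Both *TPRG1* pairs are drawn nearly on top of each other, and the 1 peak of *TP73* lies over *TP73-AS1*.

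The 6 RNA-seq libraries held between 10333138 and 14668358 counts. A count of 3, used as the floor, corresponded to between 0.197 and 0.288 CPM, which are counts scaled to the size of the library, here with the trimmed mean of M-values (TMM). Control siRNA replicate 1 stood apart from the others: it lay at -114 on the first principal component, which held 63.4% of the variance, against 8.86 to 31.2 for the other 5 libraries, and it had counts for 14636 genes against 16779 to 17796. Values without it are given for *TP63*, *TP73* and the gene lists. The *TRPS1* transcript had 1445 and 2269 CPM with control siRNA against 1166 and 722 with *TRPS1* siRNA, a log2 fold change of -0.97 (edgeR, unadjusted p = 0.0459, adjusted p = 0.659). *CHD4* had 300.3 and 285 CPM with control siRNA against 95.8 and 54.3 with *CHD4* siRNA, a log2 fold change of -1.96 (edgeR, unadjusted p = 0.00186, adjusted p = 0.784). All 10 luminal markers were above the floor in every library, whereas of 10 basal and myoepithelial markers between 3 and 5 were under it. The defining basal keratins *KRT5*, *KRT14* and *KRT17* had between 0 and 8 counts in each library. Of 6 fibroblast markers 5 and of 5 blood cell markers at least 3 were under the floor in each library.

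*TP63* was low in the control cells and higher in every knockdown library. It had 27 and 25 counts with control siRNA (replicates 1 and 2), 148 and 88 with *TRPS1* siRNA, and 267 and 92 with *CHD4* siRNA. As TMM-normalized CPM these were 1.98 and 1.89, 14.2 and 5.78, and 24.9 and 7.38. The control replicates differed by 1.05-fold, whereas the *TRPS1* siRNA replicates differed by 2.46-fold and the *CHD4* siRNA replicates by 3.38-fold. In both knockdowns the higher *TP63* level was in replicate 1, which had the higher remaining level of the silenced transcript. *TRPS1* was also higher in replicate 1 of the *CHD4* siRNA group, where it was not the target, with 2450 against 1587 CPM. Over all genes, same-numbered libraries of the knockdowns deviated together (r = 0.615). A relation of *TP63* to the depth of silencing was not tested. In bulk samples, more cells with *TP63* transcript and more transcript per cell cannot be told apart.

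Upon *TRPS1* silencing, *TP63* went from 1.93 ± 0.0651 to 9.98 ± 5.95 CPM (mean ± SD, n = 2 libraries per group). The log2 fold change was 2.36 with a standard error of 0.65 and a 95% interval from 0.80 to 3.92. By the size of the fold change it ranked 93 of 12921 genes. The unadjusted p of edgeR's quasi-likelihood test was 0.00953 and the adjusted p was 0.659, so *TP63* passed the study's threshold of a fold change over 2 with an unadjusted p under 0.05 but not an adjusted p under 0.05. At the study's threshold, 2.7% of all genes were higher, and 0% of all genes had an adjusted p under 0.05 in any of the 3 comparisons. Groups that did not overlap, with both knockdown libraries above both controls as for *TP63*, were found in 22.5% of all genes. With 2 libraries against 2, an exact test of 1 gene cannot give a p below 0.333.

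Upon *CHD4* silencing, *TP63* reached 16.1 ± 12.4 CPM (mean ± SD, n = 2 libraries), a log2 fold change of 3.06 with a standard error of 0.72 and a 95% interval from 1.39 to 4.74. It ranked 45 of 12918 genes. The unadjusted p in edgeR was 0.00318 and the adjusted p was 0.792, so again the study's threshold was passed and the adjusted one was not. In this comparison 2.6% of all genes passed the study's threshold upwards, and 19.8% had both knockdown libraries above both controls. With edgeR's likelihood ratio test the adjusted p was 0.0251, and with DESeq2 it was 0.0218. Over all 9 other tests, scalings and filters that gave *TP63* a value, its adjusted p ranged from 0.00289 to 0.792 for *CHD4* silencing and from 0.145 to 0.68 for *TRPS1* silencing, where DESeq2 gave none.

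The size of the *TP63* difference rested on replicate 1 of either knockdown. Without *TRPS1* siRNA replicate 1 the log2 fold change was 1.58 (standard error 1.40), and without *TRPS1* siRNA replicate 2 it was 2.87. Without *CHD4* siRNA replicate 1 it was 1.94 (standard error 1.35), and without *CHD4* siRNA replicate 2 it was 3.70. Leaving out the deviating control siRNA replicate 1 moved the values little, to 2.38 and 3.10. With it as the only control they were 2.32 (edgeR adjusted p = 0.0146) and 3.03 (edgeR adjusted p = 0.0342), in fits where 6165 and 3968 of all genes tested had an adjusted p under 0.05. *TP63* stayed positive in all 8 of these fits. It passed the filter of over 2 CPM in at least 2 libraries only through the knockdown libraries. With a filter on mean CPM, which does not look at the groups, the log2 fold changes were 2.35 and 3.04.

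Whether the knockdowns differed from each other in *TP63* was tested directly between their 4 libraries. The log2 difference of *CHD4* siRNA minus *TRPS1* siRNA was 0.72 (standard error 0.66), with a 95% interval from -0.90 to 2.33 and an adjusted p of 0.670 in edgeR. The groups overlapped, since 7.38 CPM in *CHD4* siRNA replicate 2 lay between both *TRPS1* siRNA values. The sign depended on the libraries kept: the difference was -0.42 without *CHD4* siRNA replicate 1 and 1.48 without *TRPS1* siRNA replicate 1. Between same-numbered libraries *CHD4* siRNA was higher both times, with 24.9 against 14.2 and 7.38 against 5.78 CPM. With the replicate number as a block the difference was 0.62 (edgeR adjusted p = 0.0161), but no label says that the numbers pair the samples.

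**Figure D2:**
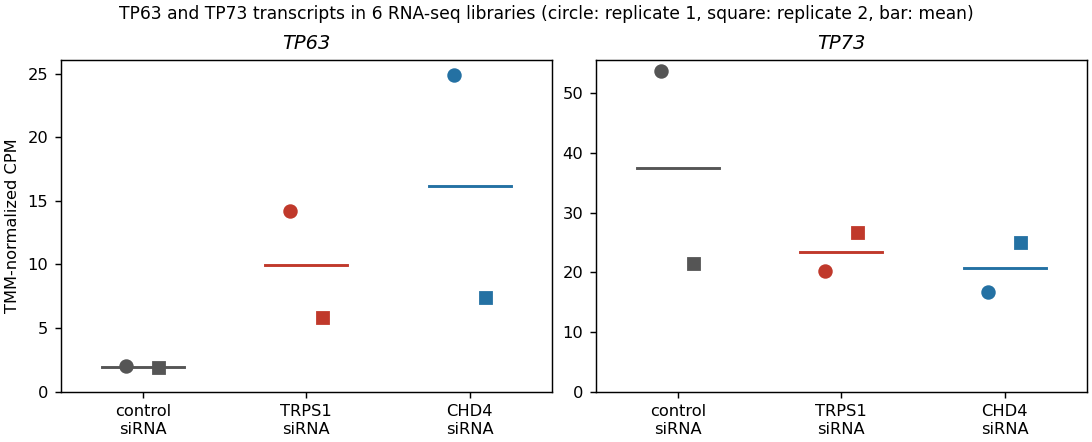
TMM-normalized CPM of *TP63* and *TP73* in each of the 6 RNA-seq libraries, with circles for replicate 1, squares for replicate 2 and a bar for the mean of each group. *TP63* is at 1.98 and 1.89 CPM in the controls and higher in all 4 knockdown libraries, whereas the highest *TP73* value is in control siRNA replicate 1.

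For *TP73* the groups overlapped. It had 733 and 283 counts with control siRNA, 210 and 405 with *TRPS1* siRNA, and 179 and 310 with *CHD4* siRNA. As TMM-normalized CPM these were 53.7 and 21.4, 20.1 and 26.6, and 16.7 and 24.9. This held in both comparisons, because control siRNA replicate 2 lay within the range of each knockdown. Control siRNA replicate 1 was the one high value, 2.52-fold above replicate 2. Within each knockdown *TP73* was higher in replicate 2, the library with the lower *TP63* level.

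The log2 fold change of *TP73* was -0.68 upon *TRPS1* silencing (standard error 0.52, 95% interval from -1.92 to 0.57, edgeR adjusted p = 0.701) and -0.84 upon *CHD4* silencing (standard error 0.53, 95% interval from -2.09 to 0.40, edgeR adjusted p = 0.798). Neither passed a threshold, and the intervals leave room for changes in either direction. Both values rested on control siRNA replicate 1: without it they were 0.14 and -0.02. With it as the only control they were -1.19 (edgeR adjusted p = 0.00501) and -1.36 (edgeR adjusted p = 0.0228), in fits where 33.8% and 30.9% of all genes passed the study's threshold. Over the 10 other tests, scalings and filters the adjusted p of *TP73* ranged from 0.547 to 0.804 and from 0.517 to 0.856. Between the knockdowns *TP73* differed by -0.16 (*CHD4* siRNA minus *TRPS1* siRNA, 95% interval from -0.81 to 0.49, edgeR adjusted p = 0.826).

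Setting both genes against each other within a library removes the scaling between libraries. *TP63* had 3.68 and 8.83 reads per 100 *TP73* reads with control siRNA, 70.5 and 21.7 with *TRPS1* siRNA, and 149 and 29.7 with *CHD4* siRNA. All 4 knockdown libraries lay above both controls, as they did for *TP63* counts alone. The share of other gene pairs with such a separation was not determined. *TP73* also moved the ratios: it had 733 counts in control siRNA replicate 1 against 283 in replicate 2. Within each knockdown it was lower in replicate 1, with 210 against 405 for *TRPS1* siRNA and 179 against 310 for *CHD4* siRNA. *CHD4* siRNA replicate 1 was the one library with more *TP63* than *TP73* reads. The ratio compares reads, not transcripts, since the gene lengths counted are not given.

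**Figure D3:**
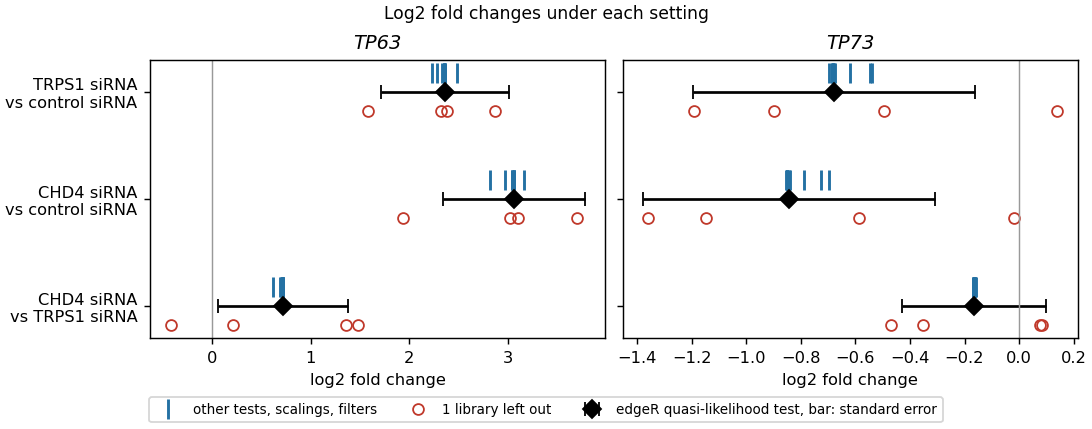
Log2 fold changes of *TP63* and *TP73* in the 3 comparisons, with diamonds and standard error bars for edgeR's quasi-likelihood test, ticks for other tests, scalings and filters, and open circles for fits without 1 library. All *TP63* values against control siRNA lie above 0, from 1.58 to 3.70, whereas those of *TP73* reach 0.14 with *TRPS1* siRNA and -0.02 with *CHD4* siRNA without control siRNA replicate 1.

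Of the genes around *TP63*, 1 passed the study's threshold, and it was lower in the knockdowns. Of the 13 annotated genes in the window, *TP63* included, 6 had counts, and besides *TP63* only *CLDN1* and *CLDN16* passed the filter of over 2 CPM. *CLDN1* encodes claudin-1, a tight junction protein. It had 176 and 311 CPM with control siRNA, 121 and 99.6 with *TRPS1* siRNA, and 109 and 63.2 with *CHD4* siRNA. In each comparison the knockdown libraries thus lay below both controls, which was the case for 21.6% and 20% of all genes, counted per comparison. The log2 fold changes were -1.14 (unadjusted p = 0.026) and -1.49 (unadjusted p = 0.013) in edgeR, past the study's threshold downwards, as were 3.17% and 2.85% of all genes. Without control siRNA replicate 2 the value upon *TRPS1* silencing was -0.67, under a fold change of 2. Without control siRNA replicate 1 the values were -1.49 and -1.84. They were -1.29 and -1.01 without *TRPS1* siRNA replicates 1 and 2, and -1.94 and -1.14 without *CHD4* siRNA replicates 1 and 2. Leaving out any library thus kept *CLDN1* below the controls. Each of these fits leaves 1 library in a group, so only the sizes are given.

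*CLDN16*, another claudin, had 105 and 46 counts with control siRNA, 13 and 35 with *TRPS1* siRNA, and 33 and 26 with *CHD4* siRNA. Its log2 fold changes of -1.63 and -1.10 did not pass the threshold. *TPRG1*, which holds 4 of the peaks, had 9 and 13 counts in the controls, 18 and 29 with *TRPS1* siRNA, and 33 and 18 with *CHD4* siRNA. In each comparison both knockdown libraries were above both controls. Counted per comparison, this was so for 22.5% and 19.8% of genes past the filter of over 2 CPM, which *TPRG1* did not pass. With the filter on mean CPM its log2 fold changes were 1.13 (standard error 0.88) and 1.44 (0.98), with unadjusted p values of 0.241 and 0.175 in edgeR. *P3H2*, a collagen prolyl hydroxylase gene, had between 1 and 9 counts, and *TPRG1-AS2* between 0 and 2.

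Around *TP73*, 14 of 29 annotated genes had counts, *TP73* included. Of the other 13, 9 passed the filter and 0 passed the study's threshold in either knockdown, where 5.87% and 5.45% of all genes did. Their log2 fold changes ranged from -1.0 to 0.23 with *TRPS1* siRNA and from -0.60 to 0.18 with *CHD4* siRNA. *TP73-AS1*, which holds the peak, had 51.1 and 39.6 CPM with control siRNA, 40.5 and 33.0 with *TRPS1* siRNA, and 37.9 and 32.3 with *CHD4* siRNA. Its log2 fold changes were -0.30 and -0.36, with unadjusted p values of 0.434 and 0.386 in edgeR. Because the strand setting of the counting is not stated in the sources used here, reads from the 218 shared bases cannot be assigned to *TP73* or *TP73-AS1*.

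**Figure D4:**
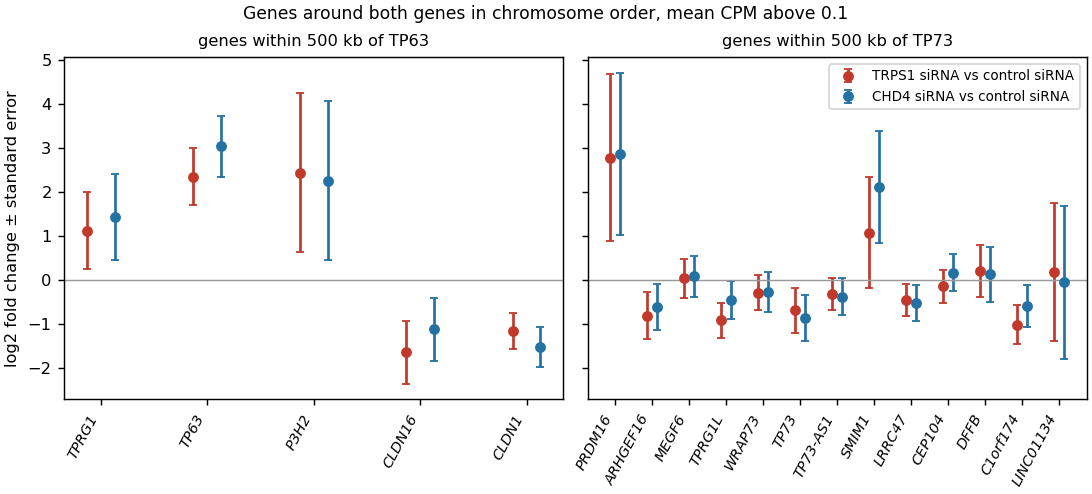
Log2 fold changes with standard errors of the genes around *TP63* (left) and *TP73* (right) in chromosome order, for *TRPS1* siRNA (red) and *CHD4* siRNA (blue) against control siRNA, with a filter on mean CPM above 0.1. *TP63* lies above 0 and *CLDN1* and *CLDN16* lie below 0 in both knockdowns, while *PRDM16*, *SMIM1*, *P3H2* and *LINC01134* have wide bars from low counts.

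Regulators of p63 and p73 were examined next. This list of 18 genes holds ubiquitin ligases (*ITCH*, *WWP1*, *NEDD4*, *FBXW7*, *MDM2*), cofactors and kinases (*YAP1*, *ABL1*, *HIPK2*, *PML*) and a chromatin factor (*KMT2D*). All 18 passed the filter and 0 passed the study's threshold in either knockdown, where 5.87% and 5.45% of all genes did. When control siRNA replicate 1 was left out, 0 and 1 passed, and when control siRNA replicate 2 was left out, 5 and 6 passed, where 33.8% and 30.9% of all genes did. The list median was 0.17 with *TRPS1* siRNA and 0.13 with *CHD4* siRNA, against -0.02 for all genes tested in both. *ITCH*, a ligase for p63 and p73, had log2 fold changes of 0.41 and -0.06, and *MDM2* had -0.34 and 0.04.

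Genes known as targets of ΔNp63 in stratified epithelia, 39 in all, were examined. The list does not separate genes that ΔNp63 raises from genes that it lowers. Its counts and medians therefore do not measure p63 activity. They comprise basal keratins, hemidesmosome and desmosome genes, Notch ligands and growth factor receptors. Upon *TRPS1* silencing 23 of them passed the filter, 2 passed the study's threshold upwards and 0 downwards, with a list median of -0.01. Upon *CHD4* silencing 24 passed the filter, 2 passed the threshold upwards and 0 downwards, with a median of 0.07. Of all genes, 2.7% and 2.6% passed the threshold upwards.

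*PERP*, a desmosomal p63 target, passed the threshold in both knockdowns. It had 26.4 and 42.3 CPM with control siRNA, 94.3 and 116 with *TRPS1* siRNA, and 99.6 and 129 with *CHD4* siRNA, log2 fold changes of 1.62 and 1.74. In each comparison both knockdown libraries were above both controls, as were those of 22.5% and 19.8% of all genes, counted per comparison. Without control siRNA replicate 1 the log2 fold changes were 1.32 and 1.45. *DST*, which encodes the hemidesmosomal plakin dystonin, had log2 fold changes of 1.18 and 0.88, of which the first passed the threshold. It was 0.73 without control siRNA replicate 1. *LAMB3*, a chain of laminin-332, had 0.19 and 1.28, of which the second passed. In the direct comparison *FGFR3*, a growth factor receptor gene, was the one list member past the threshold, higher with *CHD4* siRNA by 1.10 (unadjusted p = 0.000407 in edgeR), where 3.67% of all genes passed it. The counts of list members rested on the controls. Leaving out control siRNA replicate 2 gave 9 and 7 members in either direction, where 33.8% and 30.9% of all genes passed. When control siRNA replicate 1 was left out instead, 2 and 4 members passed upwards and 0 downwards, where 8% and 7.62% of all genes passed in either direction, and the list medians were 0.08 and 0.36. With either knockdown replicate left out, that group held 1 library, and no count of this list is given.

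Of 25 genes known as shared targets of p63, p73 and their family, 24 were tested in each knockdown, and 1 passed the threshold upwards and 1 downwards, where 2.7% and 2.6% of all genes passed it upwards and 3.17% and 2.85% downwards. *CDKN1A*, the p21 inhibitor of cyclin-dependent kinases, was the lower one in both, with log2 fold changes of -1.32 and -1.23. This list gives no direction of regulation either, so a lower or higher member is not read as a change in p63 or p73 activity. It had 210 and 95.7 CPM with control siRNA, against 52.8 and 69.4 with *TRPS1* siRNA and 55.9 and 73.6 with *CHD4* siRNA. Without control siRNA replicate 1 the values were -0.64 and -0.55, under a fold change of 2. The higher ones were *GADD45A*, a DNA damage response gene (1.50 with *TRPS1* siRNA and 0.95 with *CHD4* siRNA), and *BBC3*, which encodes the proapoptotic protein PUMA (1.24 and 1.74). *GADD45A* passed the threshold upon *TRPS1* silencing and *BBC3* upon *CHD4* silencing. The list medians were -0.08 and 0.10. Leaving out control siRNA replicate 1 gave 3 members higher and 0 lower with *TRPS1* siRNA, 2 higher and 1 lower with *CHD4* siRNA, and medians of 0.04 and -0.12, so that both medians changed sign. Without control siRNA replicate 2, 12 and 8 members passed the threshold in either direction, in fits where 33.8% and 30.9% of all genes did. With either knockdown replicate left out 0 did, in fits where 0.751% to 2.18% of all genes passed it.

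**Figure D5:**
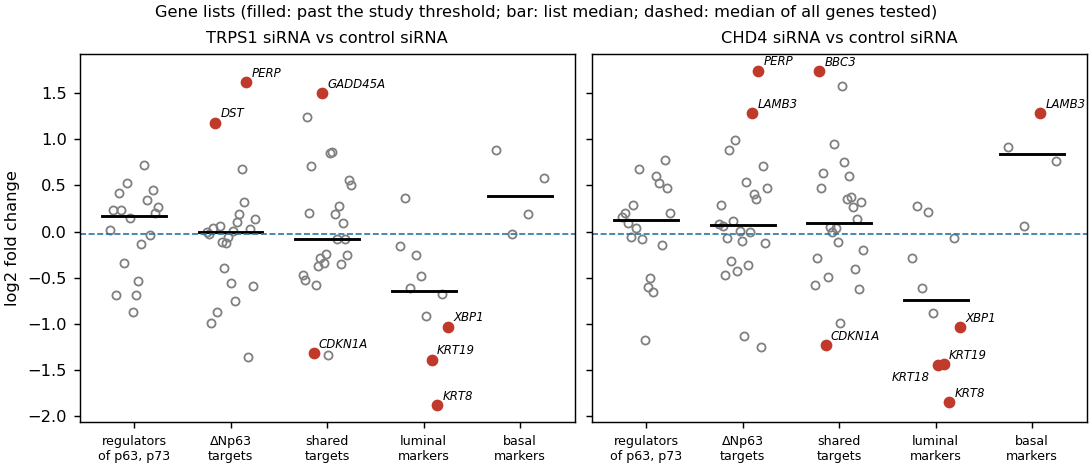
Log2 fold changes of the tested members of 5 gene lists upon *TRPS1* silencing (left) and *CHD4* silencing (right), filled red where past a fold change of 2 with an unadjusted p under 0.05, with black bars for list medians and a dashed line for the median of all genes tested. The medians of the regulators and both target lists lie between -0.08 and 0.17, whereas those of the luminal markers lie at -0.65 and -0.74.

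Markers of luminal, basal and other cells were counted beside *TP63*. Of 10 luminal markers, 3 passed the study's threshold downwards with *TRPS1* siRNA and 4 with *CHD4* siRNA, and 0 upwards, where 3.17% and 2.85% of all genes were lower and 2.7% and 2.6% higher. *KRT8*, a luminal keratin, had 5196 and 3336 CPM with control siRNA, 1075 and 1232 with *TRPS1* siRNA, and 1205 and 1146 with *CHD4* siRNA, with log2 fold changes of -1.88 and -1.85. Without control siRNA replicate 1 these were -1.53 and -1.49. *KRT19* had -1.39 and -1.43, and *XBP1*, a transcription factor gene of luminal cells, had -1.03 in both. *KRT18*, the partner of *KRT8*, had -0.92 and -1.45. The other luminal markers passed in neither knockdown. Of these, *EPCAM* was higher in both (0.37 and 0.28), and *FOXA1* had -0.25 and 0.21. *ESR1*, *PGR*, *GATA3* and *CDH1* were lower in both, with values from -0.88 to -0.07. Summed over the 10 luminal markers, the level was 12816 to 16096 CPM in the controls and 5780 to 7949 CPM in the knockdowns. Most of the sum in the controls came from *KRT8*, *KRT18* (2600 and 1737 CPM) and *KRT19* (3522 and 2109 CPM).

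Of 10 basal and myoepithelial markers only 4 passed the filter, and 0 and 1 (*LAMB3*) passed the threshold, upwards, as did 2.7% and 2.6% of all genes. The medians of these 4 were 0.39 and 0.84, against -0.02 for all genes tested. When control siRNA replicate 1 was left out, the medians of these 4 were 0.51 and 0.88. *ACTA2*, the smooth muscle actin of myoepithelial cells, had 14.9 and 12.7 CPM with control siRNA, 22.4 and 28.2 with *TRPS1* siRNA, and 27.1 and 24.6 with *CHD4* siRNA. *MYLK*, a myosin light chain kinase gene, had 9.74 and 10.6 CPM with control siRNA, 14.3 and 16.1 with *TRPS1* siRNA, and 16.2 and 18.2 with *CHD4* siRNA. In each comparison both genes had both knockdown libraries above both controls, as had 22.5% and 19.8% of all genes, counted per comparison. Neither passed the threshold, with log2 fold changes of 0.88 and 0.91 for *ACTA2* and 0.58 and 0.76 for *MYLK*. The summed level of the 10 markers overlapped between the groups, with 165 and 285 CPM in the controls and 221 to 264 CPM in the knockdowns. Most of this sum was *CDH3* (P-cadherin), which had 252 and 134 CPM in the controls and 178 to 206 CPM in the knockdowns. *KRT5* had between 0 and 2 counts in every library. *KRT14* had between 0 and 6 counts, with 1 and 0 in the libraries with the highest *TP63* level, *TRPS1* siRNA replicate 1 and *CHD4* siRNA replicate 1. *KRT17*, the other defining keratin, had 8 and 7 counts in those libraries, against 0 and 1 in the controls and 1 in both replicate 2 libraries. Of the fibroblast and blood cell markers 1 each was tested, and 0 passed the threshold in either knockdown. The part of the luminal and of the basal and myoepithelial markers in the *TP63* difference was not tested.

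The 5 genes whose log2 CPM followed that of *TP63* most closely over the 6 libraries, among 13268 genes, were *CPE*, *TCEA2*, *LINC01608*, *BBC3* and *MAOA*, with Pearson r between 0.991 and 0.998. A total of 92 genes had an r over 0.95, and all share the same libraries and groups. *MAOA*, which encodes monoamine oxidase A, had 10 and 8 counts with control siRNA, 59 and 32 with *TRPS1* siRNA and 71 and 30 with *CHD4* siRNA. *CPE* (carboxypeptidase E) had a much narrower range, with 51.9 and 51.5 CPM with control siRNA, 79.7 and 66.0 with *TRPS1* siRNA, and 89.4 and 66.6 with *CHD4* siRNA. The same ranking for *TP73*, added after the values were seen, led to genes that include *CLPP*, *MAP3K6*, *TONSL* and *DNTTIP1*, with r between 0.994 and 0.997, and 248 genes had an r over 0.95. Without control siRNA replicate 1, r was between 0.964 and 0.988 for the genes of *TP73*, and between 0.988 and 0.997 for those of *TP63*.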

How the data were processed

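According to the study's methods and the submitters' processing notes, STAR was used for alignment of trimmed RNA-seq reads and HTSeq (version 0.9.0) for counting, and the authors deposited the resulting counts per gene symbol without normalization. They aligned the ChIP-seq reads with BWA (version 0.7.12-r1039) and called peaks with MACS2 (version 2.1.1) on hg38. The deposited list gives start and end positions in bp, which are no score. It holds no replicate values, and whether replicates were pooled is not stated in the sources used here.

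Positions of genes, promoter and microRNA sequences came from RefSeq tables of GRCh38.p14. Both genes matched. These tables give gene spans without exons, so peaks inside a gene were not assigned to exons or introns, and sequences of peaks were not analysed here.

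A gene entered a comparison if at least 2 of its 4 libraries exceeded 2 CPM. Genes were tested with edgeR (version 4.0.16, R 4.3.3), using TMM scaling, the quasi-likelihood test (two-sided, prior count 0.125) and Benjamini-Hochberg adjustment over all genes tested. The study's threshold is a fold change over 2 with an unadjusted p under 0.05. Standard errors were derived from the F statistic. CPM printed for single libraries were scaled over all 6 libraries. The 2 control libraries are identical in both tables, and both knockdown comparisons share them. Total counts per library were 10333138 to 14668358. Floors and intervals cover counting error or library spread only.

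The alternatives were DESeq2 (version 1.42.0) and edgeR's likelihood ratio test in place of the main test, scaling by RLE or by library size only, no filter, a filter on mean CPM above 0.1 or on every library, a common fit of all 6 libraries, the replicate number as a block, a prior count of 2, and leaving out each library, where the gene set was kept and a lone sample was assumed to vary like the other group. The scripts were tested on simulated data. Figures were drawn with matplotlib 3.10.9.

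The members and the gene lists were chosen with earlier results of these data known. Named genes are both members, the silenced genes, all genes with counts within 500 kb, list members past the study's threshold, cell type markers and the 5 genes most like *TP63*. *FGFR3*, *ITCH*, *MDM2* and the genes most like *TP73* were added after their values were seen. A few genes of the rule are not reported here.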

Additional observations from a re-analysis of the deposited data

How the results depend on the processing

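When library sizes alone replaced TMM, the median log2 fold change of all genes moved from -0.02 to 0.10 upon *TRPS1* silencing and to 0.11 upon *CHD4* silencing, and the share of higher genes among those past the study's threshold went from 46% to 65.9% and from 47.7% to 67.4%. *TP63* remained higher in both, at 2.48 and 3.17. Its adjusted p upon *CHD4* silencing passed 0.05 with the likelihood ratio test (log2 fold change 3.06), DESeq2 (3.07), no filter on low counts (3.04) and the replicate block (2.82), and in both knockdowns without control siRNA replicate 2. The replicate block also gave the difference of *TP63* between the knockdowns, 0.62, an adjusted p of 0.0161 in edgeR. Same-numbered libraries deviated together between the knockdowns (r = 0.615) but hardly between either knockdown and the controls (r = 0.0510 and 0.00952), so with 2 pairs the numbers are not taken to pair the samples. With the block, 32, 44 and 3372 genes had an adjusted p under 0.05 in the comparisons of *TRPS1* siRNA and *CHD4* siRNA with control siRNA and with each other, against 0 in all 3 without it. The likelihood ratio test gave 34, 58 and 570, DESeq2 gave 39, 50 and 456, and 902, 769 and 2023 genes had an unadjusted p under 0.05 in the quasi-likelihood test.

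With 1 library left out, *TP63* ranged from 1.58 to 2.87 upon *TRPS1* silencing, from 1.94 to 3.70 upon *CHD4* silencing and from -0.42 to 1.48 between the knockdowns, where the sign turned without *CHD4* siRNA replicate 1. *TP73* ranged from -1.19 to 0.14, from -1.36 to -0.0204 and from -0.47 to 0.0836. Its sign turned without control siRNA replicate 1 in the first comparison, and between the knockdowns without *TRPS1* siRNA replicate 2 (0.0782) or *CHD4* siRNA replicate 1 (0.0836). The causes of these shifts were not tested. Genes past the study's threshold upon *TRPS1* silencing, 349 higher and 410 lower, numbered 635 and 724 without a filter, and upon *CHD4* silencing, 336 and 368, they numbered 730 and 673. With control siRNA replicate 1 as the only control they were 2487 and 1878, and 2266 and 1729. Without *TRPS1* siRNA replicate 1 they were 47 and 50, and without *CHD4* siRNA replicate 1 they were 65 and 55.

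A window of 250 kb held 3 peaks around *TP63*. The start of the promoter table, an alternative added after seeing the data, gave 6. A filter that asks for 2 CPM in each library gave *TP63* no value against control siRNA, and a split of peaks by score was not run, since the list holds no scores. At the floor of 3 counts, genes such as *KRT5* cannot be compared between groups, and no isoform of *TP63* or *TP73* can be told apart in counts per gene. For *TP63* the paper reports that its RNA-seq reads showed ΔN isoforms only. It also reports higher ΔNp63 mRNA and protein upon either silencing, by RT-qPCR and western blot, and no detected TAp63 protein.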
